A study of Mus musculus with 10 samples.

Results

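The CXCR3 axis of the skin comprised 4 genes, the chemokine genes Cxcl9, Cxcl10 and Cxcl11 and the receptor gene Cxcr3. They were chosen by name, and every probe set that the array annotation assigned to just 1 of these symbols was used. This gave 6 probe sets of 45037 tested, for 4 of 18193 named genes. Skin was profiled in the grafted C3H/HeJ model of alopecia areata (AA), in which alopecic skin from an affected C3H/HeJ donor is placed on young adult C3H/HeJ mice without hair loss and the recipients then develop the disease. Baricitinib, an inhibitor of JAK1 and JAK2, or placebo vehicle was delivered by an osmotic pump implanted at grafting, and skin was taken at week 12. There were 5 baricitinib treated and 5 vehicle treated mice, with 1 array per mouse. All mice of both groups carried a graft, so no array of normal, ungrafted skin enters the comparison, and the labels do not give the place of the biopsy relative to the graft.

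CXCL9, CXCL10 and CXCL11 are small secreted chemokines that keratinocytes, macrophages, endothelial cells and other cells make when interferon-gamma activates JAK1 and JAK2 and, through them, STAT transcription factors. All 3 bind CXCR3, a G protein coupled receptor of activated CD8+ T cells, Th1 cells and NK cells, and draw these cells into tissue. In AA, CD8+ T cells that make interferon-gamma surround the hair follicle. The comparison asks how the transcripts of the ligands and of the receptor stood in skin when a JAK inhibitor was present from grafting. The 3 ligands also form part of the study's own interferon signature, so their direction is not independent evidence.

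The 3 ligand genes lie next to each other on mouse chromosome 5 and Cxcr3 lies on chromosome X. The stretch just before the transcription start is shown for the members that the RefSeq promoter table for GRCm38.p6 holds (3 of 4, with Cxcl11 named only), because it is where interferon-activated factors can act and because the ligands moved together across arrays, as described further on. Each line gives 250 bases upstream of the start, 5′ to 3′ on the transcribed strand, which is the minus strand for all 3 genes. The windows are chr5:92328080-92328329 for Cxcl9, chr5:92348890-92349139 for Cxcl10 and chrX:101734148-101734397 for Cxcr3. Capitals mark matches to the motifs searched, and the sequences are those of the C57BL/6J reference rather than of C3H/HeJ.
Cxcl9: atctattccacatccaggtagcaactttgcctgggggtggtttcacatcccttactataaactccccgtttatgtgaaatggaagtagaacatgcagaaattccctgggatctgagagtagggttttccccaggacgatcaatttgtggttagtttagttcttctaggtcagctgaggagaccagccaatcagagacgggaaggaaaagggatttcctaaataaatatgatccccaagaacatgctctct
Cxcl10: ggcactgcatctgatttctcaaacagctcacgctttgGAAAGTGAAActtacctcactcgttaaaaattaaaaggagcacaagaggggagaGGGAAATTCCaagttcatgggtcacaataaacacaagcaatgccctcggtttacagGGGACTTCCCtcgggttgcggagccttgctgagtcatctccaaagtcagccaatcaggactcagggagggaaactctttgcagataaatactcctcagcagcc
Cxcr3: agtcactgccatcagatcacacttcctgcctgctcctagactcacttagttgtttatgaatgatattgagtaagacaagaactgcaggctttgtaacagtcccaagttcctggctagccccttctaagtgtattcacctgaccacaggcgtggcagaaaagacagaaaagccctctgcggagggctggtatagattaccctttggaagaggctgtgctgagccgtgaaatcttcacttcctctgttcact

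Both strands were searched for the interferon-stimulated response element core GAAANNGAAA, the gamma-activated site core TTCNNNGAA and the NF-kB consensus, and no matches overlapped. The Cxcl10 window held the response element GAAAGTGAAA at positions -213 to -204, counted back from the base before the start. It also held 2 NF-kB matches, GGGAAATTCC at -159 to -150 and GGGACTTCCC at -103 to -94. The Cxcl9 and Cxcr3 windows held no match to the 3 motifs, and no window held the gamma-activated core. Of 32851 promoter windows of all genes, 2.98% held the response element, 7.02% the gamma-activated core and 3.9% the NF-kB consensus. A match is a run of letters and not a shown binding site, and a window without a match may still hold a site spelled otherwise. In the RefSeq annotation of C57BL/6J, Cxcl11 is listed as a transcribed pseudogene, whereas the mice profiled were C3H/HeJ.

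Values are log2 expression values made by robust multi-array averaging (RMA), so 1 unit is a 2-fold step, and levels of different probe sets are not compared because probes differ in brightness. Vehicle replicate 5 stood apart, with a median correlation of 0.705 with the other arrays against 0.959 to 0.981 for the rest. Member differences, member pairs and list medians are therefore given with and without it, and the same is done for most other genes that it shifted. Array quality also went with treatment. Spiked control transcripts, added in a fixed amount, were at 11.21 to 11.43 log2 on the baricitinib arrays and 11.33 to 13.25 on the vehicle arrays, with the highest value on vehicle replicate 5 (two-sided exact permutation p = 0.0238). Control probes for Gapdh and beta-actin read the 3' and 5' ends of these transcripts, and the gap between the ends is wider in shortened RNA. It was 0.99 to 1.18 log2 in baricitinib treated skin and 1.01 to 4.35 in vehicle treated skin (two-sided exact permutation p = 0.0317). The part of the gap and of the spiked controls in the differences that follow was not tested. The gap of 1.01 was that of vehicle replicate 4, whose values are given for each member and for the other genes listed array by array.

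Cxcl9 was low on 3 baricitinib arrays, intermediate on the fourth and high on the fifth. CXCL9 is the ligand most narrowly dependent on interferon-gamma. Its brighter probe set (1418652_at) was at 6.38, 6.38, 6.38, 8.53 and 12.36 log2 in baricitinib replicates 1 to 5. In vehicle replicates 1 to 5 it was at 11.87, 12.61, 12.44, 12.42 and 5.91. The groups overlapped through 2 arrays, since baricitinib replicate 5 lay within the range of vehicle replicates 1 to 4 and vehicle replicate 5 lay below every baricitinib array. The mean was 8.01 ± 2.60 in baricitinib treated skin and 11.05 ± 2.89 in vehicle treated skin (SD, n = 5 each). The difference, baricitinib minus vehicle, was -3.04 ± 1.55 (SE, limma adjusted p = 0.371, two-sided exact permutation p = 0.183), with a 95% interval of -6.49 to 0.40. Without vehicle replicate 5 it was -4.33 ± 1.14, a 20.1-fold lower level, with a limma adjusted p of 0.0819.

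The second Cxcl9 probe set (1456907_at) had the same low, intermediate and high baricitinib arrays and placed vehicle replicate 5 differently. It was at 4.48, 4.63, 4.25, 5.74 and 9.74 log2 in baricitinib replicates 1 to 5 and at 9.18, 9.95, 9.90, 9.98 and 6.75 in vehicle replicates 1 to 5. Baricitinib replicate 4 was again above replicates 1 to 3, and vehicle replicate 5 now lay above baricitinib replicates 1 to 4. The difference was -3.38 ± 1.07 (SE, limma adjusted p = 0.246, two-sided exact permutation p for this probe set alone = 0.0238), or -3.98 ± 1.01 with a limma adjusted p of 0.0792 when vehicle replicate 5 was left out. On 9 arrays the brighter probe set exceeded the dimmer by 1.75 to 2.80 log2, and on vehicle replicate 5 it was below it by 0.84, so the array that stood apart also broke the relation between the 2 probe sets.

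**Figure D1:**
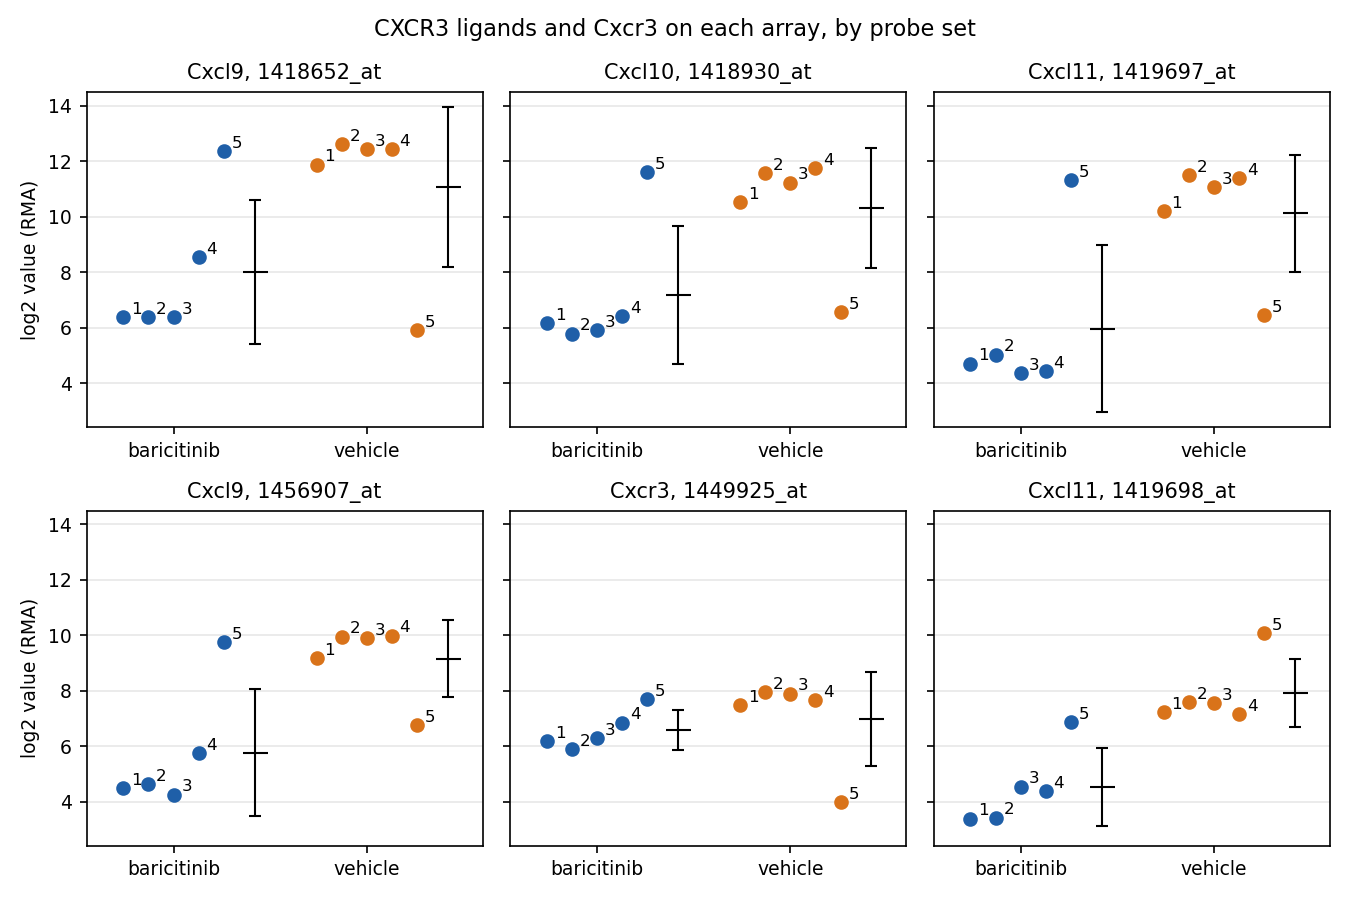
Log2 value (RMA) of each member probe set on each array, baricitinib in blue and vehicle in orange. Digits give the replicate, and bars the mean ± SD (n = 5). Baricitinib replicate 5 sits with vehicle replicates 1 to 4 in 5 of 6 panels, and vehicle replicate 5 is far from its group in all 6.

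Cxcl10, the ligand that type I interferons and TNF also induce, had 4 low and 1 high baricitinib array. Its probe set (1418930_at) was at 6.17, 5.78, 5.90, 6.42 and 11.61 log2 in baricitinib replicates 1 to 5. In vehicle replicates 1 to 5 it was at 10.52, 11.56, 11.23, 11.75 and 6.55. Here baricitinib replicate 4 stayed with replicates 1 to 3, and these 4 lay below every vehicle array, the closest being vehicle replicate 5. The mean was 7.18 ± 2.49 against 10.32 ± 2.16 (SD, n = 5 each). The difference was -3.15 ± 1.31 (SE, limma adjusted p = 0.317, two-sided exact permutation p = 0.0873). It was -4.09 ± 1.10 without vehicle replicate 5, with a limma adjusted p of 0.0829.

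Cxcl11 had the largest difference of the members on its brighter probe set. CXCL11 is the ligand with the highest affinity for CXCR3, and it also binds the scavenging receptor ACKR3. The probe set (1419697_at) was at 4.69, 5.03, 4.34, 4.44 and 11.32 log2 in baricitinib replicates 1 to 5 and at 10.20, 11.49, 11.06, 11.38 and 6.44 in vehicle replicates 1 to 5. Baricitinib replicates 1 to 4 lay below all vehicle arrays, and baricitinib replicate 5 lay within the range of vehicle replicates 1 to 4. The mean was 5.96 ± 3.01 against 10.11 ± 2.12 (SD, n = 5 each). The difference was -4.15 ± 1.46 (SE, limma adjusted p = 0.269, two-sided exact permutation p = 0.0317). It was -5.07 ± 1.32 without vehicle replicate 5, with a limma adjusted p of 0.0813.

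The dimmer Cxcl11 probe set (1419698_at) was the only member probe set whose groups did not overlap. It was at 3.39, 3.42, 4.54, 4.38 and 6.85 log2 in baricitinib replicates 1 to 5. In vehicle replicates 1 to 5 it was at 7.22, 7.57, 7.54, 7.15 and 10.06. Baricitinib replicate 5 was the highest of its group but below every vehicle array, and vehicle replicate 5, low on the brighter probe set, was the highest array here. The difference was -3.39 ± 0.75 (SE, limma adjusted p = 0.221, two-sided exact permutation p = 0.00794, the smallest that 5 against 5 arrays can give). Of all probe sets, 2.03% had every baricitinib array below every vehicle array, which is the background for this 1 of 6. Without vehicle replicate 5 the difference was -2.86 ± 0.62, with a limma adjusted p of 0.0733. The 2 Cxcl11 probe sets therefore agreed on baricitinib replicates 1 to 4 and on vehicle replicates 1 to 4 and ordered the other 2 arrays differently.

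Cxcr3, the receptor itself, varied over a narrower range. Its probe set (1449925_at) was at 6.17, 5.89, 6.28, 6.84 and 7.70 log2 in baricitinib replicates 1 to 5. In vehicle replicates 1 to 5 it was at 7.47, 7.93, 7.89, 7.65 and 3.97. Vehicle replicate 5 was the lowest of the 10 arrays, and baricitinib replicate 5 lay between vehicle replicates 1 and 4 and vehicle replicates 2 and 3. With all arrays the mean was 6.58 ± 0.72 against 6.98 ± 1.69 (SD, n = 5 each). The difference was -0.40 ± 0.74 (SE, limma adjusted p = 0.747, two-sided exact permutation p = 0.675), with a 95% interval of -2.05 to 1.24. Without vehicle replicate 5 it was -1.16 ± 0.33, with a 95% interval of -1.90 to -0.42 and a limma adjusted p of 0.0871. In bulk skin, fewer CXCR3-bearing cells and less Cxcr3 RNA per cell cannot be told apart, and the same holds for the ligands and the cells that make them.

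Counted over the family, all 6 probe sets had a lower mean in baricitinib treated skin and 0 of 6 passed the adjusted threshold of 0.05 in limma, where 0.0% of all probe sets passed. At an unadjusted limma p under 0.05, 4 of 6 were lower, against 5.62% of all probe sets. These 4 were the dimmer Cxcl9 probe set, Cxcl10 and both Cxcl11 probe sets. Without vehicle replicate 5 all 6 were lower at that threshold, against 13.5% of all probe sets, and 0 passed the adjusted threshold. Weighting arrays by their estimated quality let all 6 pass the adjusted threshold in limma, as did 21.5% of all probe sets. The weights were uneven, at 0.029 for vehicle replicate 5, 5.43 for baricitinib replicate 1 and 0.50 to 2.05 for the other arrays. With these weights the differences ran from -1.30 for Cxcr3 to -5.47 for Cxcl11.

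**Figure D2:**
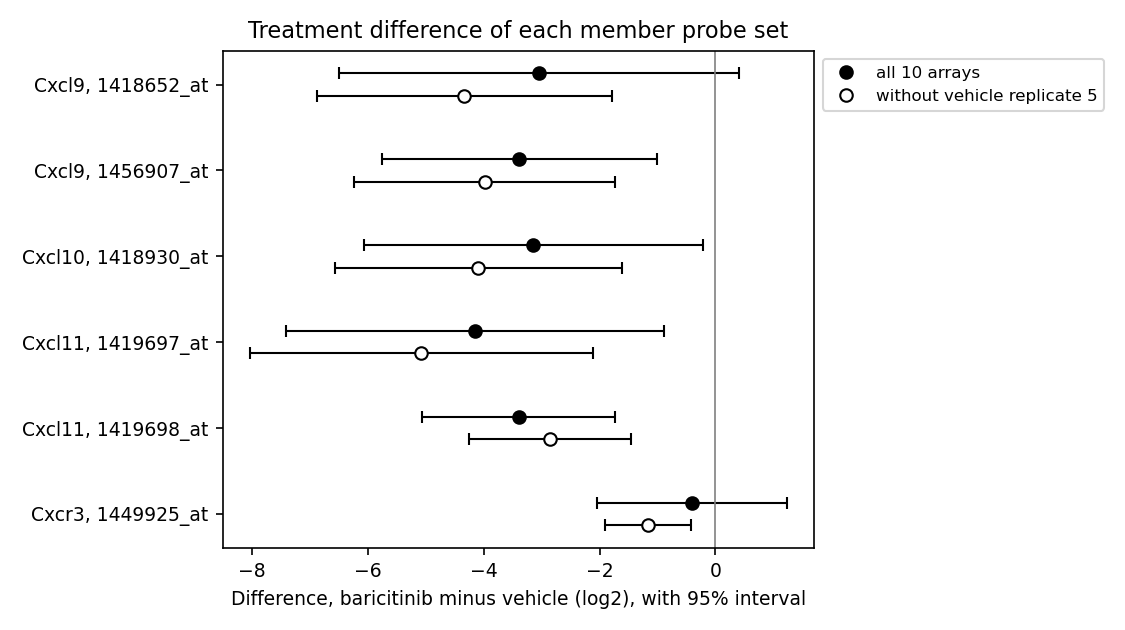
Difference of each member probe set, baricitinib minus vehicle on the log2 scale, with its 95% interval from limma, from all 10 arrays (filled points) and from 9 arrays, vehicle replicate 5 being left out (open points). Intervals for all arrays include 0 for the brighter Cxcl9 probe set and Cxcr3, and no interval without vehicle replicate 5 includes 0.

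Leaving out each of the 10 arrays in turn moved the size and not the direction of the 6 differences. The brighter Cxcl11 probe set ranged from -5.49 without baricitinib replicate 5 to -3.75. Cxcl10 ranged from -4.25, also without baricitinib replicate 5, to -2.79. Cxcr3 ranged from -1.16 without vehicle replicate 5 to -0.17, and from -0.69 to -0.17 when any of the other 9 arrays was left out. RNA quality as a covariate cannot be separated from treatment here, because only vehicle replicate 4 had a 3'/5' gap within the range of the baricitinib arrays. With this covariate 5 of the 6 differences were larger and 1 smaller. The Cxcl9 probe sets were at -4.91 ± 2.19 and -4.33 ± 1.56, Cxcl10 at -4.76 ± 1.85 and Cxcr3 at -1.41 ± 1.02 (SE, limma adjusted p = 1.0 for each). The brighter Cxcl11 probe set was at -5.66 ± 2.11 and the dimmer, whose groups did not overlap, at -2.59 ± 1.07 (SE, limma adjusted p = 1.0 for both).

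**Figure D3:**
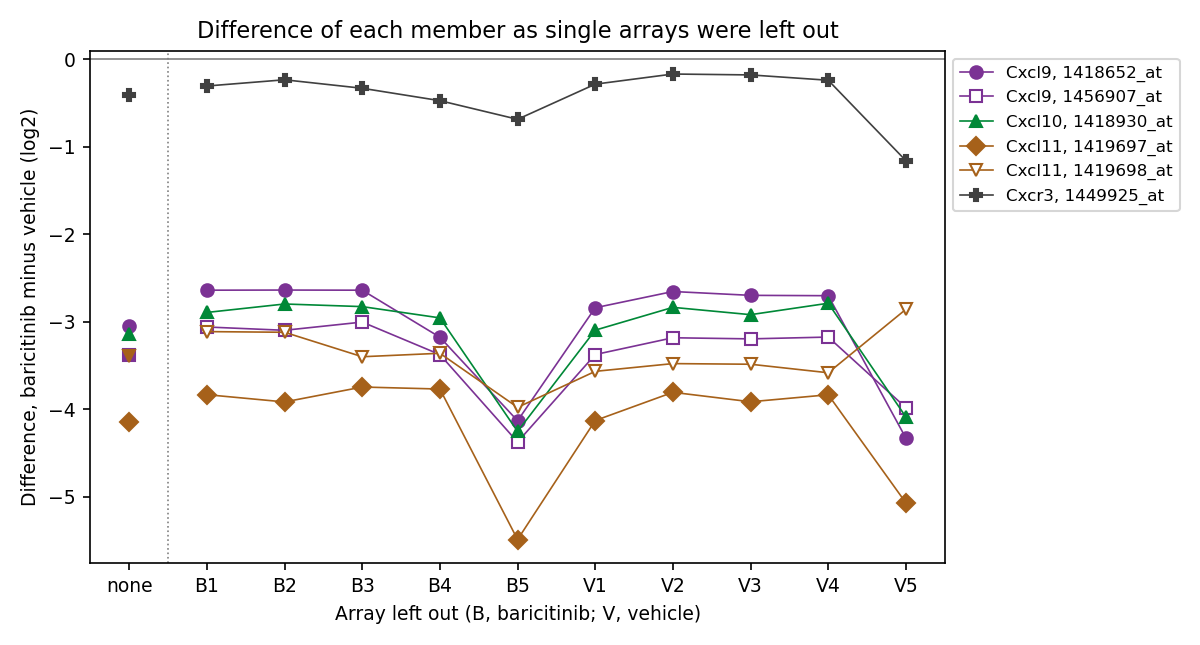
Difference of each member probe set (baricitinib minus vehicle, log2) with no array left out and with each of the 10 arrays left out in turn. Filled markers are the probe set with the highest mean of its gene, and leaving out baricitinib replicate 5 takes Cxcl11 to -5.49.

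Members were also set against each other within each array, over 6 pairs, with the brightest probe set of each gene. The treatment difference of Cxcl11 exceeded that of Cxcr3 by 3.75 log2, as the difference of Cxcl11 minus Cxcr3 was -3.75 (two-sided exact permutation p = 0.0397, adjusted over the 6 pairs 0.0595). For Cxcl10 minus Cxcr3 it was -2.74 and for Cxcl9 minus Cxcr3 -2.64, each with the same exact p of 0.0397 and adjusted p of 0.0595. None of these passed the threshold after adjustment, and none did without vehicle replicate 5, at -3.91, -2.93 and -3.17 (exact, adjusted 0.0794 for each). Without baricitinib replicate 5 all 3 did, at -4.80, -3.57 and -3.45, with exact permutation p values adjusted to 0.0159, 0.0159 and 0.0238. That array did not stand apart in quality, with a median correlation of 0.980 and a gap of 1.05 log2. It was the treated array with high ligand values, so leaving it out removes the value most against a difference.

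Among the ligands, Cxcl10 and Cxcl11 lay close to a fixed distance from each other in vehicle treated skin. Cxcl10 minus Cxcl11 was 0.07 to 0.37 log2 on the vehicle arrays and 0.29 to 1.98 on the baricitinib arrays. The group difference was 1.01 (two-sided exact permutation p = 0.0238, adjusted 0.0595), and without baricitinib replicate 5 it was 1.24 (exact, adjusted 0.0159). It was 0.98 without vehicle replicate 5 (exact, adjusted 0.0833) and 0.63 with the mean over the probe sets of each gene (exact, adjusted 0.838). On baricitinib replicates 1 to 4 both probe sets were dim, Cxcl11 at 4.34 to 5.03 and Cxcl10 at 5.78 to 6.42 log2. The part of dim signal in this group difference was not tested. Cxcl9 and Cxcl10 did not differ detectably, at 0.10 (exact permutation p = 0.841), or -0.24 without vehicle replicate 5. Cxcl9 minus Cxcl11 was 1.11 (exact permutation p = 0.135, adjusted 0.162), 0.74 without vehicle replicate 5 (exact, adjusted 0.371) and 0.56 with the mean over probe sets.

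Upstream of the ligands, the interferon-gamma gene had a profile like that of their brightest probe sets. Ifng was at 4.09, 3.84, 3.89, 4.42 and 8.63 log2 in baricitinib replicates 1 to 5 and at 8.33, 8.69, 8.72, 9.26 and 3.81 in vehicle replicates 1 to 5. On the brightest probe set of each ligand, the 2 arrays that left their group were the same 2 on which Ifng did. The dimmer Cxcl11 probe set differed, as vehicle replicate 5 was its highest array at 10.06 log2. Cxcl9 was at 8.53 on baricitinib replicate 4 against 6.38 on replicates 1 to 3, a wider step than that of Ifng. The difference of Ifng was -2.79 ± 1.21 (SE, limma adjusted p = 0.327), or -3.78 without vehicle replicate 5.

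Genes of the interferon-gamma receptor and its kinases differed by less than 1 log2 unit. Ifngr1 was at 0.58 ± 0.28 and Ifngr2 at -0.25 ± 0.16 for baricitinib minus vehicle (SE). Jak1 and Jak2, the kinases that baricitinib inhibits, were at -0.37 ± 0.27 and -0.09 ± 0.20, or at -0.58 and -0.20 without vehicle replicate 5. Ifngr1 was then at 0.44. Irf1, an interferon-induced transcription factor of these promoters, was at -1.05 ± 0.66, or -1.51 without that array. Rela, an NF-kB subunit, was at 0.95 ± 0.79 with all arrays and at 0.08 without vehicle replicate 5, where it was 4.54 log2. Of the 16 measured genes among 18 listed inducers and signalling genes, 12 had a lower mean and 0 passed the adjusted limma threshold. Their median difference was -0.20, beside 0.01 over all 18193 named genes, of which 49.7% had a lower mean. It was -0.47 when vehicle replicate 5 was left out, beside -0.06 and 57.2% over all named genes, and ran from -0.47 to -0.08 as each array was left out.

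Genes of the lymphocytes that bear CXCR3 included some with large and some with small differences. Cd8a, a chain of the CD8 coreceptor, was at 4.22, 4.93, 4.67, 4.56 and 10.02 log2 in baricitinib replicates 1 to 5 and at 10.65, 11.03, 10.72, 10.17 and 4.81 in vehicle replicates 1 to 5. Its difference was -3.80 ± 1.43 (SE), or -4.96 without vehicle replicate 5, and those of the granzyme genes Gzma and Gzmb were -4.19 ± 1.97 and -3.92 ± 1.42, or -5.83 and -4.97 without it. Prf1, which encodes the pore-forming protein perforin of the same killer cells and was named after its values were seen, lay the other way. It was at 7.51 to 7.92 log2 on the baricitinib arrays and at 6.33, 7.11, 5.97, 7.80 and 6.39 in vehicle replicates 1 to 5, a difference of 1.05 ± 0.32 (SE, limma adjusted p = 0.237), or 0.97 when vehicle replicate 5 was left out. Cd3e, a chain of the T cell receptor complex, was at -0.54 ± 0.32, Cd4 at -0.36 ± 0.19 and Tbx21, the Th1 transcription factor that induces Cxcr3, at -0.98 ± 0.68. Leaving out vehicle replicate 5 gave -0.72, -0.36 and -1.54 for these 3. Tbx21 ran with Cxcr3 on the arrays. It was at 3.98, 3.75, 4.57, 4.96 and 6.54 log2 in baricitinib replicates 1 to 5 and at 6.61, 6.08, 6.13, 6.38 and 3.51 on the vehicle arrays. For both genes vehicle replicate 5 was the lowest array. Baricitinib replicate 5 was the highest of its group for both and lay within the range of vehicle replicates 1 to 4. Of 18 lymphocyte genes 16 had a lower mean and 0 passed, with a median difference of -0.81, and of -1.30 without vehicle replicate 5.

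Of 15 other genes measured that interferon-gamma induces, 13 had a lower mean and 0 passed the adjusted limma threshold, with a median difference of -0.97, or -1.06 without vehicle replicate 5. The 2 with a higher mean were Socs1 at 0.22 ± 0.26 and Psmb8 at 0.14 ± 0.98 (SE), both named after their values were seen. Without vehicle replicate 5 Socs1 was at 0.03 and Psmb8 at -0.81, and 14 of the 15 genes had a lower mean. Igtp and Iigp1, GTPases that act on intracellular pathogens, differed by -2.32 ± 0.77 and -2.46 ± 0.78, and Ido1, an enzyme of tryptophan breakdown, by -2.002 ± 1.05 (SE), the last by -2.87 when vehicle replicate 5 was left out. In baricitinib replicate 4 these 3 were at 10.80, 10.59 and 5.76 log2, above baricitinib replicates 1 to 3 (8.39 to 8.92, 7.90 to 8.39 and 3.70 to 4.10) as for Cxcl9, while Cxcl10 and Cxcl11 were not raised on that array.

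**Figure D4:**
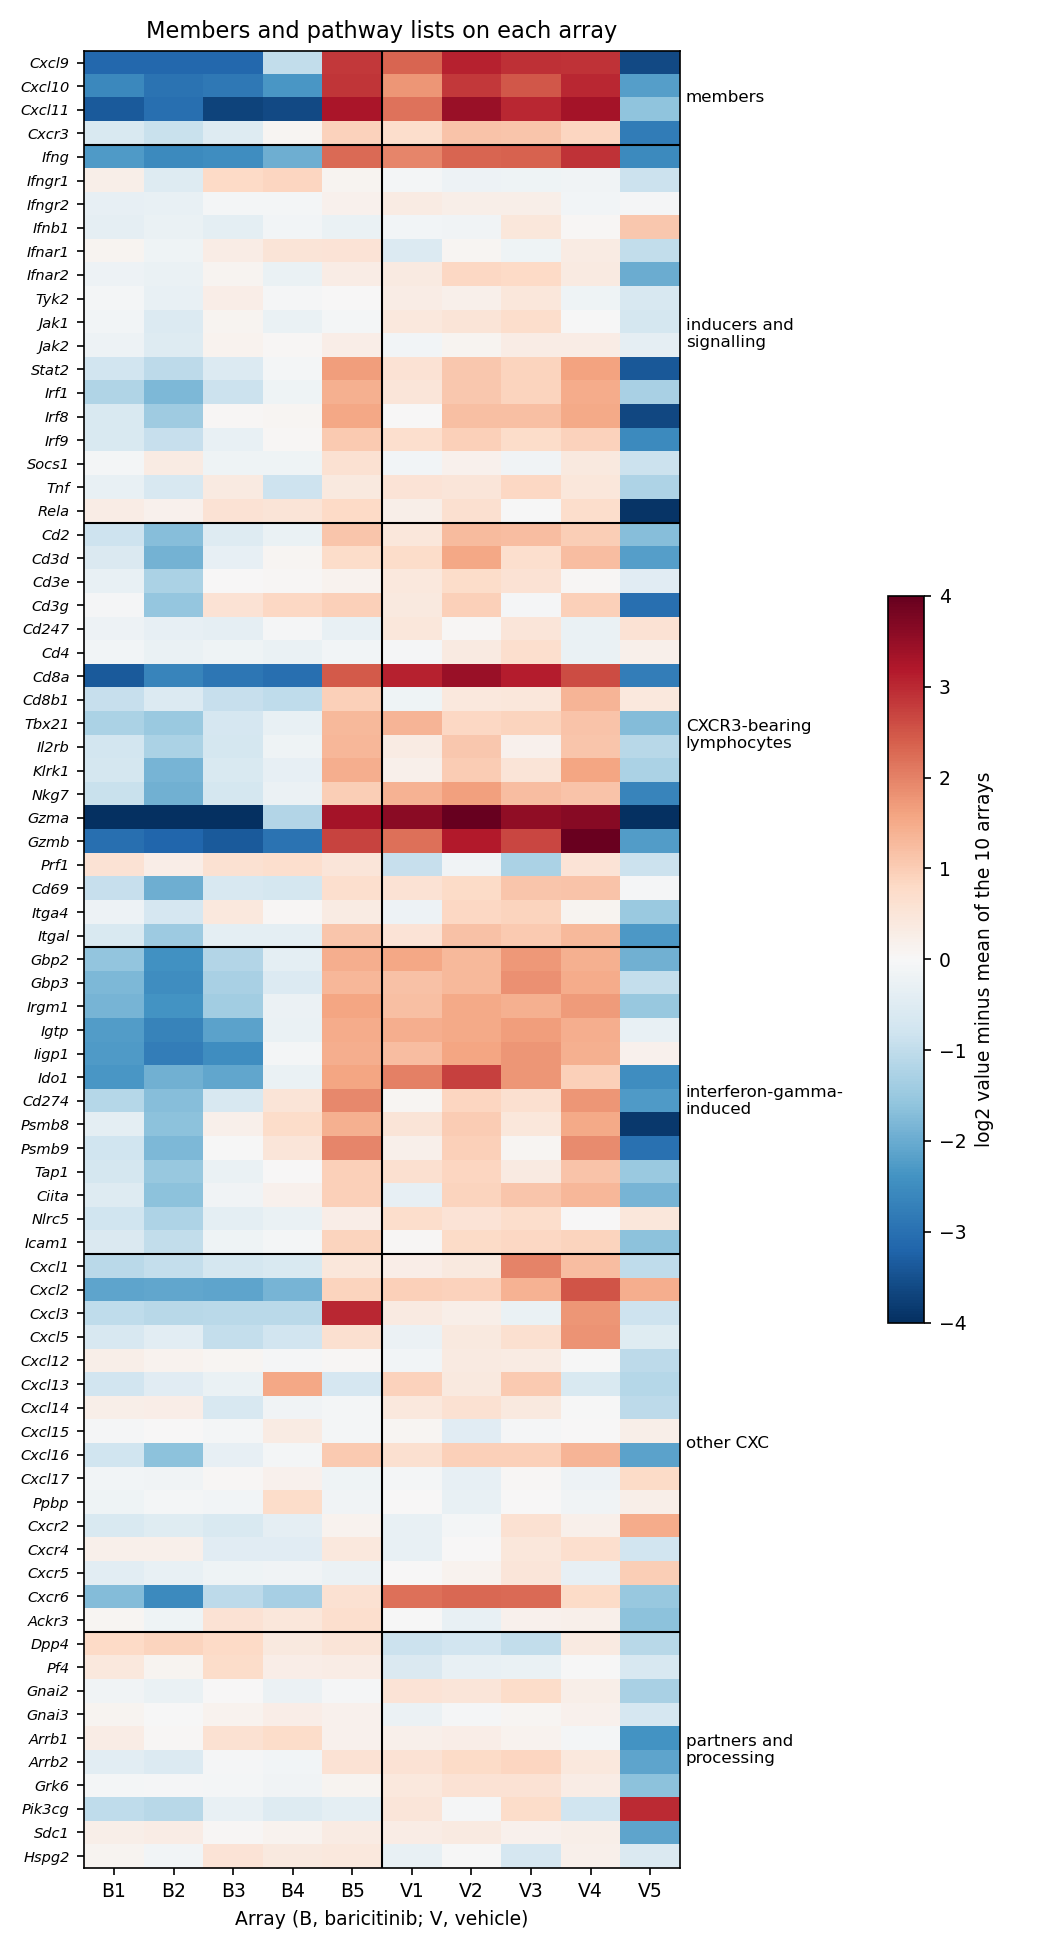
Log2 value minus the mean of the 10 arrays for the 4 members (brightest probe set) and the genes of 5 pathway lists, with baricitinib arrays B1 to B5 left of the line and vehicle arrays V1 to V5 right of it; colours saturate at 4 and -4. The ligands, Ifng, Cd8a and Gzmb are high in B5 and V1 to V4 and low in B1 to B4 and V5.

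Partners of the receptor and genes that act on the ligands had differences of both signs. Dpp4 encodes the protease CD26, which trims the ligands at their amino end and weakens their action on CXCR3. It was at 11.81, 11.90, 11.81, 11.40 and 11.52 log2 in baricitinib replicates 1 to 5 and at 10.16, 10.26, 10.04, 11.37 and 9.92 in vehicle replicates 1 to 5. Every baricitinib array was above every vehicle array, as on 3.09% of all probe sets, though vehicle replicate 4 lay only just below. The difference was 1.34 ± 0.27 (SE, limma adjusted p = 0.221), opposite in sign to the ligands. Vehicle replicate 4 was also the vehicle array with the smallest 3'/5' gap, and the part of RNA quality in this gene was not tested.

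Pf4, a platelet chemokine gene reported as a further ligand of CXCR3, also lay opposite to the interferon-induced ligands. It was at 9.34 to 9.96 log2 on the baricitinib arrays and 8.59 to 9.22 on the vehicle arrays, and differed by 0.72 ± 0.18 (SE, limma adjusted p = 0.224). The other largest differences of this list were those of Pik3cg, a lipid kinase of chemokine receptors, at -1.34 ± 0.59, and Arrb1, an arrestin, at 0.74 ± 0.48 (SE), or -0.76 and 0.24 without vehicle replicate 5. Of the 10 genes 4 had a lower mean and 0 passed, with a median difference of 0.35, or 0.04 without vehicle replicate 5.

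Within the CXC family, the neutrophil chemokines Cxcl2 and Cxcl1 also had lower means. Cxcl2 was at 3.33, 3.37, 3.32, 3.56 and 6.32 log2 in baricitinib replicates 1 to 5 and at 6.397, 6.37, 6.81, 7.94 and 6.90 in vehicle replicates 1 to 5, so vehicle replicate 5 did not leave its group for this gene. Its difference was -2.90 ± 0.59 (SE, limma adjusted p = 0.221). The differences of Cxcl1 and of Cxcr6, a receptor of tissue T cells, were -1.15 ± 0.52 and -2.41 ± 0.81 (SE), or -1.55 and -3.09 without vehicle replicate 5. Of 16 other CXC chemokine and receptor genes 12 had a lower mean, 0 passed and the median difference was -0.38, or -0.46 without vehicle replicate 5.

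Profiles were compared by the root mean square of the differences between 2 genes over the 10 arrays, each centred on its own mean, so a smaller value is a closer likeness. The nearest genes to Cxcl9 were Ubd (0.43 log2), Gbp8 (0.44), Cxcl10 (0.70), Ifng (0.71) and Ang2 (0.75). The nearest to Cxcl10 were Ifng (0.37), Gbp8 (0.46), Gzmb (0.47), Ang2 (0.56) and AA467197 (0.62). The nearest to Cxcl11 were Gzmb (0.45), Cxcl10 (0.67), Cd8a (0.67), 2610528A11Rik (0.73) and Mmp13 (0.78). All 3 ligands thus had at least 1 gene of another kind nearer than the next ligand, and the arrays that gave these values share treatment, RNA quality and the 2 arrays that left their groups.

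Cxcr3 had other neighbours. They were Parp12 (0.17 log2), Irf9 (0.17), Vav1 (0.22), Limd2 (0.23) and Lgals3bp (0.25), while the ligands were at 1.84 to 2.45, because Cxcr3 itself varied less (a root mean square of 1.18 around its mean against 2.61 to 3.12 for the ligands). Without vehicle replicate 5, 5 of 5 genes stayed nearest to Cxcl9 and to Cxcl11, 4 of 5 to Cxcl10 and 2 of 5 to Cxcr3. With Pearson correlation as the measure, 2 of 5 stayed for each ligand and 3 of 5 for Cxcr3.

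**Figure D5:**
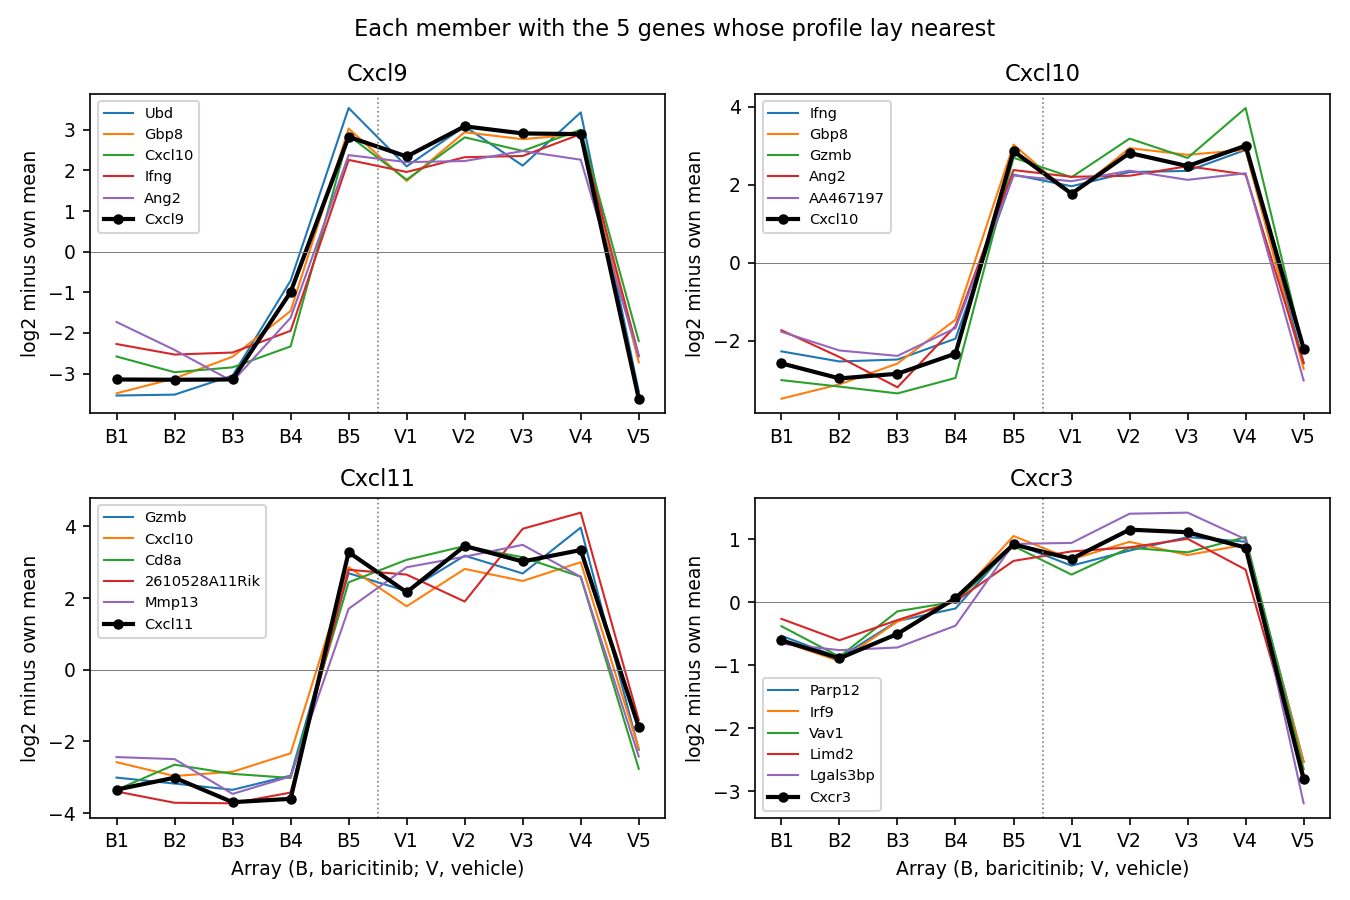
Log2 value minus the gene's own mean on each array (B, baricitinib; V, vehicle) for each member (black) and the 5 genes nearest to it by root mean square difference. Profiles of ligands run from about -3 in B1 to B3 to values near 3 in B5 and V2 to V4, and the Cxcr3 profile is lowest in V5.

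Genes next to the ligands on chromosome 5 did not have the low values of baricitinib replicates 1 to 4 seen for the ligands. In the RefSeq table Art3 spans Cxcl10 and Cxcl11, and its difference was -0.10 ± 0.22, with 10.29 to 11.46 log2 on all baricitinib arrays and 10.75 to 11.18 on all vehicle arrays. The flanking genes Naaa and Sdad1 were at -0.39 ± 0.23 and 0.62 ± 0.38, and Nup54 and Scarb2 at 0.88 ± 0.54 and 0.62 ± 0.39 (SE). Sdad1, Nup54 and Scarb2 were lowest in vehicle replicate 5, at 7.78, 5.68 and 9.92 log2, and without it were at 0.25, 0.32 and 0.21.

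Markers of cell types that can make the ligands were read on the same arrays, as the mean log2 value of each list. Macrophage markers had a lower mean in baricitinib treated skin in 2 of 6 genes, with list values of 9.92 to 10.57 on the baricitinib arrays and 8.55 to 10.52 on the vehicle arrays. Keratinocyte markers, which define the epidermis of skin, were lower in 3 of 5, at 12.30 to 12.75 and 12.14 to 13.04, and neutrophil markers in 3 of 4, at 6.87 to 7.85 and 6.42 to 8.10. Dendritic cell markers were lower in 2 of 5, at 5.96 to 6.85 and 5.46 to 6.47. Vehicle replicate 5 was the lowest vehicle array on each of these lists. Vehicle replicates 1 to 4 were at 10.09 to 10.52 for macrophage and 12.90 to 13.04 for keratinocyte markers, the latter above every baricitinib array. They were at 7.47 to 8.10 for neutrophil and 6.02 to 6.47 for dendritic cell markers. Without vehicle replicate 5, 3 of 6 macrophage, 4 of 5 keratinocyte, 4 of 4 neutrophil and 2 of 5 dendritic cell markers were lower. Endothelial markers were lower in 0 of 4, at 7.21 to 8.48 against 6.72 to 7.04. These ranges did not overlap, and neither did those of the mast cell and adipocyte markers given next. Of all single probe sets, 3.09% had every baricitinib array above every vehicle array.

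Lists of other cells of the biopsy were read in the same way. Mast cell markers were at 8.83 to 9.99 log2 on the baricitinib arrays and 6.65 to 8.40 on the vehicle arrays, with 0 of 4 lower, and fibroblast markers at 11.64 to 12.35 against 11.39 to 11.84, with 1 of 4 lower. Adipocyte markers (0 of 3 lower) were at 10.71 to 12.32 against 9.42 to 10.65, skeletal muscle markers (1 of 4 lower) at 10.11 to 12.23 against 9.74 to 11.40, and B cell markers (3 of 3 lower) at 4.07 to 4.94 against 4.59 to 6.24. Vehicle replicates 1 to 4 were at 8.14 to 8.40 for mast cell and 11.41 to 11.84 for fibroblast markers. They were at 10.64 to 11.40 for skeletal muscle and 4.59 to 5.77 for B cell markers. In these lists 0 markers passed the adjusted limma threshold, and their part in the values of the ligands and of Cxcr3 was not tested.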

How the data were processed

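Skin RNA of 10 C3H/HeJ grafted mice at week 12 (5 baricitinib, 5 vehicle) was read on Affymetrix mouse genome arrays after amplification and biotin labelling with kits from NuGen. Their probe sets were named from the platform annotation. The deposited values were log2 expression values made by the authors with RMA, run on this experiment alone, with its version not given in the sources used here. RMA gives arrays a common intensity distribution, so a general loss of signal on 1 array appears as gene-by-gene shifts, and no detection calls come with the values. Precision is limited by the number of arrays. Groups and replicate numbers came from the sample titles. The study's methods removed 1 vehicle array that the labels do not name, so all 10 entered and each was left out in turn.

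After removal of 64 controls, 45037 probe sets were tested in R (version 4.3.3) by limma (version 3.58.1) (two-sided, Benjamini-Hochberg over all, threshold 0.05). The annotation gave 34945 probe sets 1 symbol, 932 several and 9160 none, and 0 symbols were updated from the RefSeq table for GRCm38.p6. A gene outside the members was read by the probe set of highest mean over the arrays. Exact permutation tests, in Python version 3.11.15 with scipy version 1.17.1, used all 252 assignments of arrays, or 126 without 1 array. The limma fit was tested on simulated data. The members, the 5 pathway lists and the 10 marker lists were chosen with earlier results of these data known. Genes outside the members were named by a rule that took the 3 largest differences of each pathway list and 12 genes always named. The rule also took the 5 nearest profiles of each member and the neighbours on chromosome 5, which gave 39 genes outside the members. Alternatives were quantile normalization and centring of the deposited values, RNA quality as a covariate, the replicate number as a block, array weights, a filter on dim probe sets, other eBayes settings, 1 probe set or the mean of probe sets per gene, and an exact test. RNA quality as a covariate without vehicle replicate 5 was added after seeing the data. Genes of the lists without a probe set of their own were not analysed here.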

Additional observations from a re-analysis of the deposited data

Results flagged for a closer look

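An array was listed where its gap to the nearest array of its group was over 0.71 of the group's range. Of 94 groups of 5 arrays, 39 had such an array. Chance gives about 1 in 20 for groups not selected on the data. Many genes here were named for large differences or for profiles near the members on these same arrays. The rate is therefore no background for the 39. All came from 3 arrays, with 12 on baricitinib replicate 5, 26 on vehicle replicate 5 and 1 on vehicle replicate 4, and the genes are not independent of each other.

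All members had at least 1. Vehicle replicate 5 lay apart from the other vehicle arrays for Cxcl9 at 5.91 log2 on the brighter and 6.75 on the dimmer probe set, for Cxcl10 at 6.55 and for Cxcr3 at 3.97. For Cxcl11 it was below its group at 6.44 on the brighter probe set and above it at 10.06 on the dimmer. Baricitinib replicate 5 lay above its group for the dimmer Cxcl9 probe set at 9.74, for Cxcl10 at 11.61 and for the brighter Cxcl11 probe set at 11.32.

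Among the other named genes, baricitinib replicate 5 lay above its group for 2610528A11Rik at 10.86, AA467197 at 11.78, Ang2 at 9.97, Cd8a at 10.02, Cxcl2 at 6.32, Gzmb at 9.69, Ifng at 8.63, Lgals3bp at 10.60 and Mmp13 at 7.83 log2. Vehicle replicate 5 lay below its group for AA467197 at 6.52, Ang2 at 5.02, Arrb1 at 6.25, Cd8a at 4.81, Gbp8 at 4.73, Gzma at 3.10, Gzmb at 4.76, Ifng at 3.81 and Ifngr1 at 8.09 log2. It also did so for Igtp at 10.75, Irf9 at 6.91, Lgals3bp at 6.48, Limd2 at 6.97, Mmp13 at 3.71, Parp12 at 8.05, Rela at 4.54, Scarb2 at 9.92, Tbx21 at 3.51, Ubd at 5.36 and Vav1 at 3.97 log2. Vehicle replicate 4 lay above the other vehicle arrays for Dpp4 at 11.37 log2.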

How the results depend on the processing

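All 6 member differences kept their sign under every alternative run. Array weights brought all 6 past the adjusted limma threshold, at -4.84 and -4.37 for the 2 Cxcl9 probe sets, -4.35 for Cxcl10, -5.47 and -3.30 for Cxcl11 and -1.30 for Cxcr3, and raised the count of called probe sets from 0 to 9676. The exact permutation test of a probe set alone, unadjusted, was under 0.05 for the dimmer Cxcl9 probe set (-3.38, p = 0.0238) and both Cxcl11 probe sets (-4.15, p = 0.0317, and -3.39, p = 0.00794). With each array left out, the differences ran from -4.33 to -2.64 and from -4.37 to -3.003 (Cxcl9), -4.25 to -2.79 (Cxcl10), -5.49 to -3.75 and -3.98 to -2.86 (Cxcl11) and -1.16 to -0.17 (Cxcr3). The count of called probe sets then ran from 0 to 848, with 848 when vehicle replicate 4 and 12 when baricitinib replicate 5 was left out, and 0 members among them. Of pairs, Cxcl9 minus Cxcl10 (0.10) ran from -0.24 to 0.26, at -0.22 without baricitinib replicate 4 and -0.24 without vehicle replicate 5, and was -0.068 as a mean over probe sets, where Cxcl9 and Cxcl10 minus Cxcl11 were 0.56 and 0.63 (exact, adjusted 0.838 for both). Cxcl9, Cxcl10 and Cxcl11 minus Cxcr3 ran from -3.45 to -2.31, -3.57 to -2.48 and -4.80 to -3.30, and Cxcl10 minus Cxcl11 from 0.81 to 1.24, each past the threshold only without baricitinib replicate 5. The median of receptor partners (0.35) was 0.041 with RNA quality as a covariate, 0.042 without vehicle replicate 5, 0.057 with array weights and -0.019 with the covariate and without vehicle replicate 5. Its range over left-out arrays was 0.042 to 0.44. Replicate numbers did not pair the arrays (correlation of same-numbered deviations -0.23 to 0.09), and with the replicate block 0 probe sets were called, with Cxcl9 at -3.04 (limma adjusted p = 0.494) and Cxcr3 at -0.40 (0.796). Of the 6680 probe sets at an unadjusted p under 0.05, 37.9% were lower, against 54.5% with arrays centred on their median. Dim probe sets, with no detection calls, may compress differences.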
